A study of Homo sapiens with 4 samples.

Results

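The RAB GTPases are the largest branch of small GTPases and were followed here through 4 RNA-seq libraries of LNCaP, a human prostate cancer line that responds to androgen. Members were the protein-coding genes named RAB with a number and an optional letter or number suffix, and genes for RAB effectors and regulators were left out. The files list 62 such genes, and 54 of them reached 1 RPKM or more in at least 1 library, among 14626 of 19801 genes that did. RPKM counts the reads of a gene scaled to the length of its exons and to the number of mapped reads. RAB38 was not analysed here. The 8 genes under this level were RAB6D, RAB7B, RAB33A, RAB34, RAB39A, RAB40A, RAB41 and RAB44. Just outside the level lay RAB34, RAB40A and RAB6D, with highest values of 0.57, 0.63 and 0.71 RPKM, and just inside it RAB3C, RAB36 and RAB31, with 1.39, 1.44 and 1.56 RPKM.

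A RAB protein switches between a GTP-bound form, which sits on a membrane and binds effectors, and a GDP-bound form, which GDP dissociation inhibitors keep in the cytosol. Exchange factors load GTP, GTPase-activating proteins end the cycle, and prenyl groups on cysteines near the C terminus anchor the protein. Each RAB marks its own compartments, so that together they direct vesicles from the endoplasmic reticulum (ER) through the Golgi to the cell surface and from there through endosomes to lysosomes. Prostate luminal cells are secretory, and their vesicle traffic delivers products such as PSA to the lumen.

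All 4 libraries came from LNCaP cells grown in medium with FBS and transfected for 24 h with a plasmid. One pair of cultures received empty vector, and the other pair received AR1-651, a constitutively active construct that lacks a ligand-binding domain. In each pair, 1 culture was then given Ailanthone (AIL) for the next 12 h and 1 was not, and the labels give no concentration. Each of the 4 conditions has 1 library, so differences could not be set against replicate error and were not tested. Lists of 4 values below run from empty vector to the same vector with AIL (empty vector + AIL), then AR1-651, then AR1-651 + AIL. Transfection was transient, and the share of cells that took up the construct is not given in the sources used here. In bulk RNA, fewer cells with a transcript and less transcript per cell cannot be told apart.

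The luminal markers KLK3, FOLH1, KRT8, KRT18 and TMPRSS2 were present in every library, at 16.6 RPKM or more. KRT14, PTPRC, PECAM1 and COL1A2, which mark basal cells, leukocytes, endothelium and fibroblasts, stayed at or below 0.94 RPKM, and the fibroblast gene COL1A1 reached 4.59 RPKM with empty vector. KLK3, which encodes PSA, was higher with AR1-651 (1442 RPKM) than with empty vector (287 RPKM). RPKM was deposited without read counts. From short genes with few reads, the depth relative to empty vector was 0.945 for empty vector + AIL, 1.09 for AR1-651 and 1.12 for AR1-651 + AIL, at a ratio shared by 24 of 100, 31 of 113 and 23 of 94 genes compared.

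RAB mRNAs ran from a listed 0, for RAB3C, to 269 RPKM, for RAB7A with AR1-651. Together the 54 genes summed to 1712, 1731, 1944 and 1787 RPKM, and their median lay between 15.6 and 16.9 RPKM in the 4 libraries. In every library the same 5 genes led. They were RAB1B (ER to Golgi transport), RAB7A (late endosomes and lysosomes), RAB13 (tight junctions and exocytosis), RAB5C (early endosomes) and RAB10 (polarised exocytosis), and they held between 44.2% and 53.4% of the summed RPKM. RAB1B was first with empty vector, at 237 RPKM, and with empty vector + AIL, at 217 RPKM. RAB7A had 173, 174, 269 and 202 RPKM and was first in both libraries with the construct. There RAB1B had 213 and 154 RPKM, below RAB7A and RAB13 in both and below RAB5C with AR1-651. RPKM of 1 or more in all 4 libraries was found for 50 of the 54 genes, and of 10 or more for 27.

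**Figure D1:**
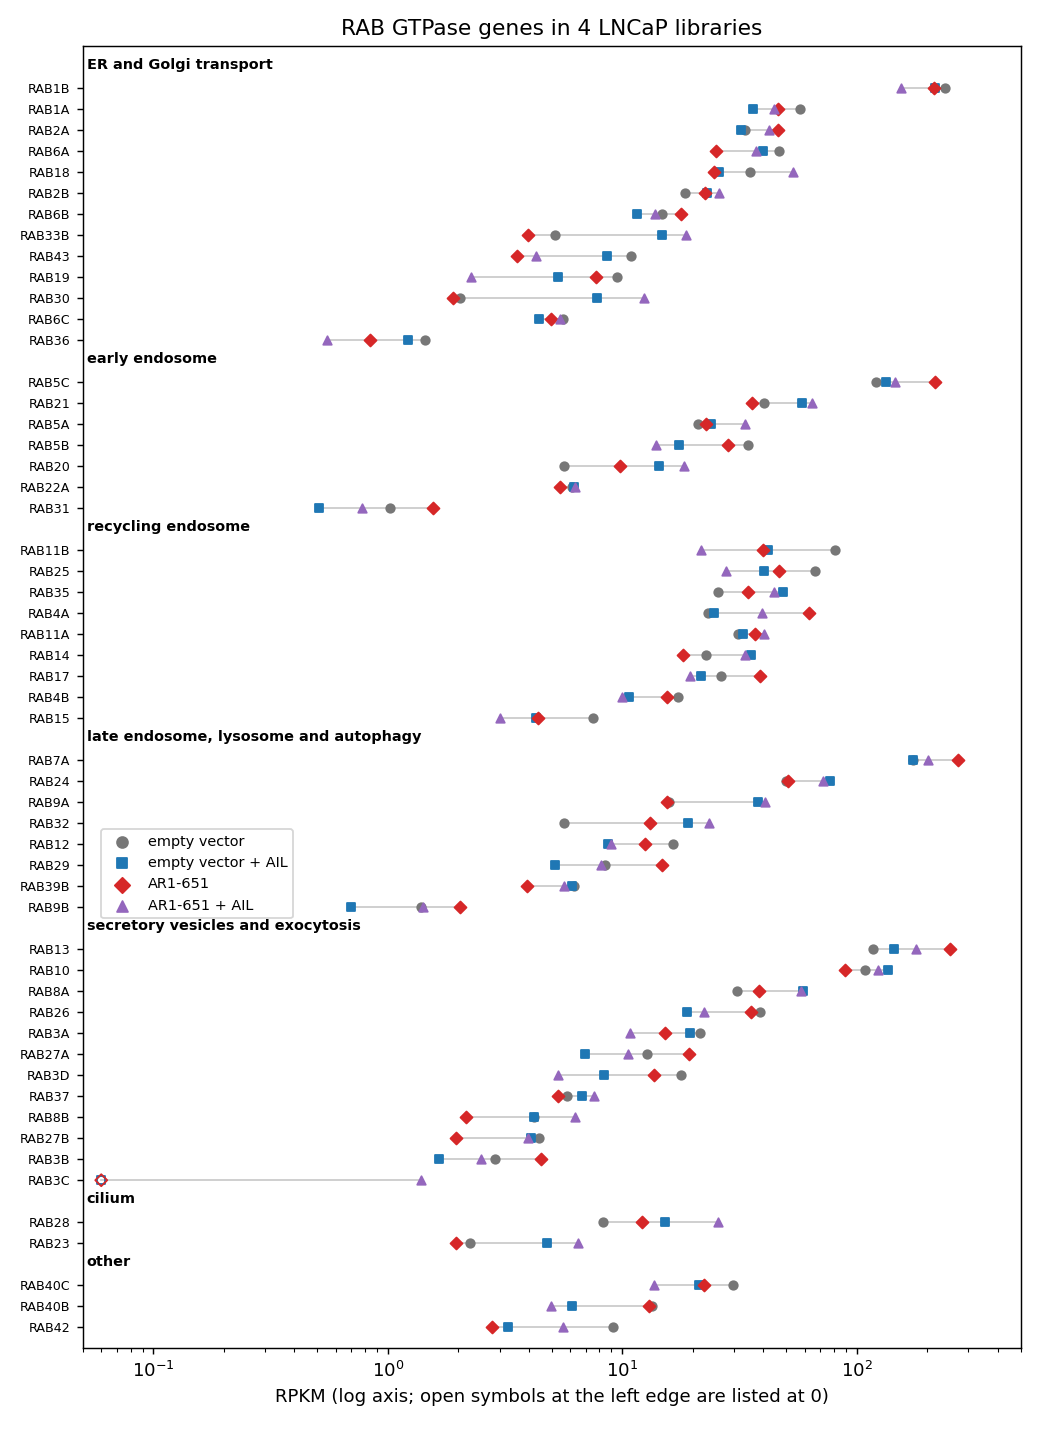
RPKM (log axis) of the 54 RAB genes in the 4 libraries, 1 symbol per library, grouped by the compartment where the protein is best known and ordered by mean RPKM. RAB1B, RAB7A, RAB13, RAB5C and RAB10 lie furthest right, and RAB30, RAB33B and RAB9A show both AIL libraries to the right of both libraries without AIL.

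Changes were taken as differences of log2(RPKM + 1), a scale that understates changes of low genes, and a gene counted as changed from 2-fold, which is 1 on this scale. Of the 54 genes, 18 passed 2-fold in at least 1 of 4 comparisons. The centre of the changes moved with the scaling. The median of all genes kept was -0.30 for AR1-651 against empty vector and 0.13 for AR1-651 + AIL against AR1-651, and with median-ratio scaling, which sets the typical gene equal between libraries, these medians were -0.09 and -0.03. For the members past 2-fold, no direction turned under any of the alternatives tried. Dropping the minimum RPKM, or raising it to 5 RPKM, leaves a gene's own change as it was. A pseudocount of 0.1 in place of 1 can only enlarge a change. Those alternatives could not turn a direction.

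The question of the AIL comparisons was what the compound does to the transcriptome of cells with and without the truncated construct. With AIL, single genes of several compartments differed, among them RAB30, RAB33B and RAB9A, which were higher, and RAB3D and RAB40B, which were lower. In empty vector cells 3 of the 13 ER and Golgi members were higher with AIL (23.1%, against 48.3% of all genes) and 10 were lower (median -0.22). This lean did not recur in AR1-651 cells, where 7 were higher (53.8%, against 56.2%) and 6 lower (median 0.10). The late endosome and lysosome members split into 4 and 4 in both kinds of cells (medians -0.01 and 0.05). In empty vector cells 5 members were at least 2-fold higher with AIL (9.26%, against 9.53% of all genes) and 3 were at least 2-fold lower (5.56%, against 9.03%). In AR1-651 cells 8 were higher (14.8%, against 14.9%) and 3 were lower (5.56%, against 5.74%). RAB3C, from a listed 0, is among the 8 and was kept only through the library in which it counts as higher. No share is therefore read from that count. As deposited, the other shares lie near or below those of all genes. Those counts set the RAB genes apart in no direction on this scale. In AR1-651 cells the lower side moved with the setting. With a trend in length and GC content over all genes subtracted, 9 of 54 were lower there (7.52% of all genes) and 2 higher (8.30%). With median-ratio scaling 7 were lower (8.62%). The median change of the members was -0.12 in empty vector cells, where that of all genes was -0.02, and 0.03 in AR1-651 cells, where that of all genes was 0.13.

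Both comparisons with AIL use different libraries, so they can be set beside each other. Of the 54 members, 19 were higher and 23 were lower with AIL in both kinds of cells, which is 77.8% in the same direction, against 70.2% of all genes. With a trend in length and GC content over all genes subtracted these shares were 74.1% and 75.9%, so the members did not stand above all genes in every setting. Across the 54 genes the changes had r = 0.73 (Spearman rho = 0.71), and across all genes r = 0.56. Genes of one library share its depth and composition and are not independent replicates, so r describes these libraries. RAB30, RAB33B and RAB9A were at least 2-fold higher in both, and RAB3D and RAB40B at least 2-fold lower in both. In empty vector cells the values of RAB3D and RAB40B lay just past 2-fold and went under it with that trend subtracted (-0.84 and -0.89) and with length bins.

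**Figure D2:**
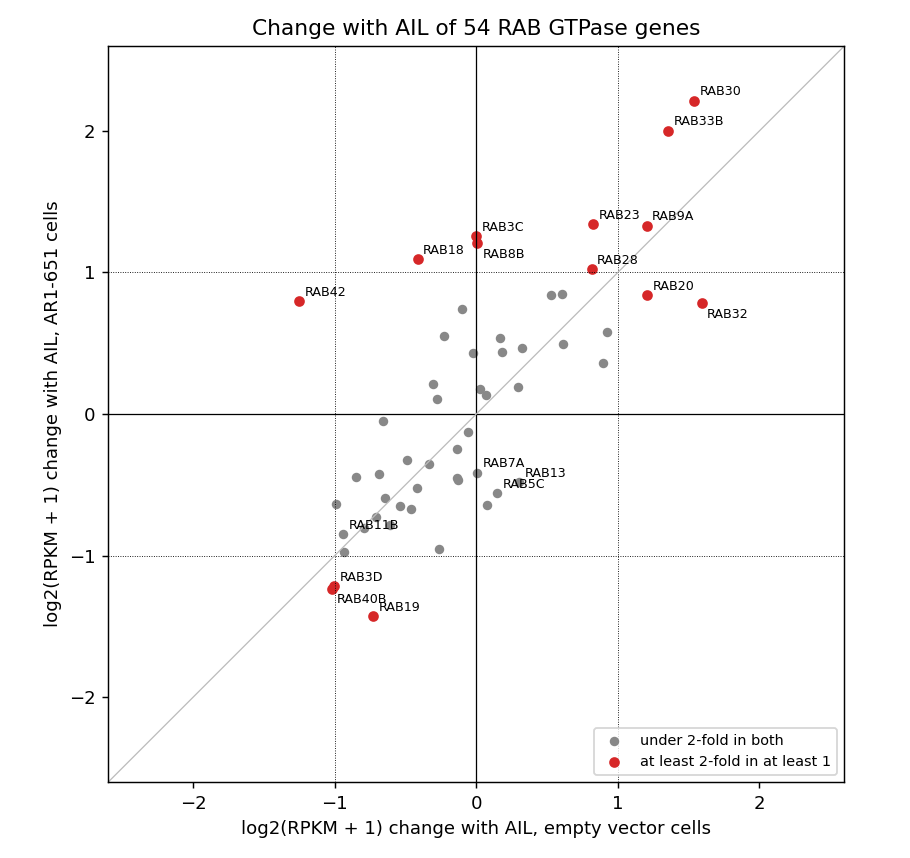
Change of log2(RPKM + 1) with AIL in empty vector cells (x axis) and in AR1-651 cells (y axis), 1 point per RAB gene, with dotted lines at 2-fold and a grey line of equality. RAB30, RAB33B and RAB9A lie beyond 2-fold on both axes at the upper right, RAB3D and RAB40B at the lower left, and RAB42 and RAB18 lie at the upper left with opposite signs.

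Among RABs of the ER and Golgi, RAB30, which is found on the Golgi and takes part in its upkeep, had 2.04, 7.84, 1.89 and 12.4 RPKM. Its log2 change with AIL was 1.54 in empty vector cells and 2.21 in AR1-651 cells. RAB33B, a Golgi RAB that binds the autophagy protein ATG16L1, had 5.16, 14.7, 3.95 and 18.8 RPKM, with changes of 1.35 and 2.0. For both genes the AIL libraries were well above the other pair, and these changes remained past 2-fold under every alternative that could move them. RAB18, which acts on the ER and on lipid droplets, differed between the cells, with 35.0, 26.0, 24.5 and 53.5 RPKM. It was lower with AIL in empty vector cells (-0.41) and higher in AR1-651 cells (1.09), and AR1-651 + AIL was the library that stood out. RAB19, a Golgi-associated RAB, had 9.50, 5.34, 7.76 and 2.26 RPKM, with changes of -0.73 and -1.43.

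The other ER and Golgi genes stayed under 2-fold with AIL. RAB1A and RAB1B, which carry traffic from the ER to the Golgi, had changes of -0.65 and -0.13 in empty vector cells and -0.05 and -0.47 in AR1-651 cells. RAB1A had 57.4, 36.1, 46.2 and 44.6 RPKM. RAB2A, RAB2B, RAB6A and RAB6B, which act between the Golgi and the ER and within the Golgi, lay between -0.35 and 0.55. RAB6C, at 4.43 to 5.59 RPKM, derives from a copy of RAB6A, and reads of the pair may be shared, so its value is uncertain.

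On the endosomal side, RAB20, linked to early endosomes and phagosomes, had 5.64, 14.3, 9.78 and 18.3 RPKM, with changes with AIL of 1.21 in empty vector cells and 0.84 in AR1-651 cells. RAB9A, which returns mannose 6-phosphate receptors from late endosomes to the Golgi, had 15.9, 37.9, 15.5 and 40.6 RPKM, with changes of 1.20 and 1.33. RAB32, a RAB of lysosome-related organelles and mitochondria, had 5.65, 19.1, 13.2 and 23.4 RPKM, with changes of 1.59 and 0.78. In all 3 genes both libraries with AIL lay above both libraries without it. RAB7A, the main RAB of late endosomes, did not follow, with changes of 0.00 and -0.41. No recycling endosome member passed 2-fold with AIL. The nearest was RAB11B, a regulator of recycling to the plasma membrane, with changes of -0.94 and -0.85, together with RAB17 in AR1-651 cells at -0.95 (RAB17, a RAB of epithelial polarity, was named after its value was seen).

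Among secretory RABs, RAB3D, found on secretory granules, had 17.85, 8.40, 13.7 and 5.31 RPKM, with changes with AIL of -1.004 and -1.22. RAB8B, a relative of RAB8A in exocytosis and cilium formation, had 4.19, 4.21, 2.16 and 6.29 RPKM, with changes of 0.01 and 1.21. RAB3C, a synaptic vesicle RAB, was listed at 0 in 3 libraries and at 1.39 RPKM with AR1-651 + AIL, which is too low in a single library to be read. RAB26, on granules as well, lay just under the threshold in empty vector cells (38.7 to 18.9 RPKM, a change of -0.99) and was named after its value was seen. Of the RABs known from the cilium, RAB23, a negative regulator of Hedgehog signalling, had 2.25, 4.76, 1.96 and 6.49 RPKM and changes of 0.83 and 1.34, and RAB28 had 8.26, 15.3, 12.1 and 25.7 RPKM and changes of 0.81 and 1.03. Both genes were higher in each AIL library than in either library without AIL.

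RAB40B, which carries a SOCS box and so serves a ubiquitin ligase, had 13.4, 6.09, 13 and 4.95 RPKM, with changes with AIL of -1.02 and -1.23. Both AIL libraries lay below the others. RAB42 had 9.12, 3.25, 2.78 and 5.57 RPKM, a change of -1.25 in empty vector cells and of 0.80 in AR1-651 cells. For RAB42 the empty vector library alone was high.

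The members that stayed under 2-fold in every comparison filled in each compartment. On early endosomes, RAB21, which traffics integrins, had 40.1, 58.4, 35.7 and 64.7 RPKM and RAB22A held between 5.43 and 6.28 RPKM. Among recycling RABs, RAB14 had 22.9, 35.3, 18.2 and 33.6 RPKM and RAB35, which guides fast recycling, 25.6, 48.5, 34.3 and 44.4 RPKM. RAB14, RAB21 and RAB35 were thus higher in each AIL library than in either library without AIL. With the length and GC trend subtracted, RAB21 changed by -0.03 in AR1-651 cells, RAB14 by 0.13 and RAB35 by 0.45. RAB15, at 7.50, 4.29, 4.37 and 3.01 RPKM, was lower with AIL in both kinds of cells. Of the autophagy and lysosome genes, RAB24 had 49.9, 76.7, 50.8 and 72.1 RPKM and RAB12 16.55, 8.73, 12.5 and 8.93 RPKM, so these moved in opposite directions with AIL. RAB29, a partner of LRRK2, had 8.44, 5.18, 14.8 and 8.14 RPKM and was highest with AR1-651. RAB40C, the relative of RAB40B, had 29.8, 21.4, 22.4 and 13.7 RPKM. RAB37 and RAB39B stayed between 3.93 and 7.55 RPKM, and RAB9B, RAB31 and RAB36 at or below 2.03 RPKM. These genes were named to account for the remaining members, after their values were seen.

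For the 4 members past 2-fold with AIL in both kinds of cells that matched the RefSeq promoter table (build GRCh38.p14), the 250 bases before the first listed start are shown to let the regulatory sequence be read beside these values. RAB33B had no entry. Capitals mark GGGCGG or CCGCCC, the GC box, and CACGTG, the E-box, searched on both strands.
RAB30: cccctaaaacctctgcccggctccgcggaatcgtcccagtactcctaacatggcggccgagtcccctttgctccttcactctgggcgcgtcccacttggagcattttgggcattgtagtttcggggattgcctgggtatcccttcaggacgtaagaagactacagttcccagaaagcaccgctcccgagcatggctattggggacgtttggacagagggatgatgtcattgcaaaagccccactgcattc
RAB9A: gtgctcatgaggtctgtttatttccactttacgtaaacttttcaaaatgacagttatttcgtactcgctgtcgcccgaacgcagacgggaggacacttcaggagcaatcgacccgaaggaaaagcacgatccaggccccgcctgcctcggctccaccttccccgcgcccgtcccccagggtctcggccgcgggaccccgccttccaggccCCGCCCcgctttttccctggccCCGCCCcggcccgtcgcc
RAB3D: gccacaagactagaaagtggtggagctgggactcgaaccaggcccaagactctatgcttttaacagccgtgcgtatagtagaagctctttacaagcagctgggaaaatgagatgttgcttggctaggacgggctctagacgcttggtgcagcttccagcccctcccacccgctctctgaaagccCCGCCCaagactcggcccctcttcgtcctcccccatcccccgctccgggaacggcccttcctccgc
RAB40B: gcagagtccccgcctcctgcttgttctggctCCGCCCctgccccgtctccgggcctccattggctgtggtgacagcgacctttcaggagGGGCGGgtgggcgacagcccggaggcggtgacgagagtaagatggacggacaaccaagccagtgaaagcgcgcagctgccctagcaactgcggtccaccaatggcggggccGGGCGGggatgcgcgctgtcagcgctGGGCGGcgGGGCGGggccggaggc
These lie at chr11:83071898-83072147 on the minus strand (RAB30), chrX:13688878-13689127 on the plus strand (RAB9A), chr19:11339658-11339907 on the minus strand (RAB3D) and chr17:82698699-82698948 on the minus strand (RAB40B). GC content was 56.4% in RAB30, 63.6% in RAB9A, 59.6% in RAB3D and 71.2% in RAB40B, against a median of 65.4% over the 44 members with an entry and 64.8% over 11173 genes. RAB40B held 5 GC boxes, RAB9A 2, RAB3D 1 and RAB30 none.

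The second question was what the truncated construct does on its own. With AR1-651, the junction and exocytosis gene RAB13, the recycling gene RAB4A and the lysosome-related gene RAB32 were at least 2-fold higher than in the control, and RAB42, RAB43 and RAB11B were lower by as much or more. The 3 higher members are 5.56% of the 54, against 4.01% of all genes, and the 3 lower members are 5.56%, against 11.6%. The median change of the members was -0.13 and that of all genes -0.30. With median-ratio scaling the members' median became 0.11, so the sign of the median depends on the scaling.

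RAB4A, which drives fast recycling from early endosomes, had 23.3, 24.7, 62.4 and 39.7 RPKM, a log2 change with AR1-651 of 1.38. RAB13, which acts at tight junctions and in exocytosis, had 117, 145, 249 and 178 RPKM, a change of 1.08. RAB32 changed by 1.09 and was higher still in both AIL libraries. In RAB4A and RAB13 the AR1-651 library was the highest of the 4 and AR1-651 + AIL the second. RAB5C, one of the RABs of early endosomes, showed the same order under 2-fold, with 120, 133, 216 and 146 RPKM and a change of 0.84, and so did RAB7A with a change of 0.63. With AIL added to AR1-651 cells these 4 genes were lower, though above their level with empty vector. The log2 changes were -0.64 for RAB4A, -0.48 for RAB13, -0.56 for RAB5C and -0.41 for RAB7A. Both comparisons use the AR1-651 library, and these genes were taken for being highest in it. That they were lower with AIL follows from this choice. RAB13 and RAB32 were past 2-fold under 4 of 7 alternatives, and RAB4A under all 7. The 7 include no filter and a minimum of 5 RPKM, which cannot move the value of a kept gene. Otherwise RAB13 and RAB32 passed only with a pseudocount of 0.1, which can only enlarge a change, and with median-ratio scaling.

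Among lower members, RAB43, a Golgi RAB, had 10.9, 8.63, 3.57 and 4.30 RPKM, a change with AR1-651 of -1.38. Both libraries with the construct lay below both without it. RAB11B had 81.1, 41.8, 40.0 and 21.75 RPKM, a change of -1.002, and so was lowest where the construct and AIL were combined. RAB11B was past 2-fold under 4 of 7 alternatives (-0.74 with median-ratio scaling) and RAB43 under 5 of 7 (-0.80 with the length and GC trend subtracted). These counts again include no filter and the minimum of 5 RPKM, which cannot move the values. They also include the pseudocount of 0.1, which can only enlarge a change. RAB11B-AS1, an antisense lncRNA at this locus, had 5.89, 2.45, 6.07 and 1.77 RPKM. The kit was stranded, but the use of strand in counting is not given in the sources used here, and reads of the pair may not be told apart. RAB42 changed by -1.42.

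The promoter windows of RAB13 and RAB4A are shown in the same way, since these genes were highest with AR1-651.
RAB13: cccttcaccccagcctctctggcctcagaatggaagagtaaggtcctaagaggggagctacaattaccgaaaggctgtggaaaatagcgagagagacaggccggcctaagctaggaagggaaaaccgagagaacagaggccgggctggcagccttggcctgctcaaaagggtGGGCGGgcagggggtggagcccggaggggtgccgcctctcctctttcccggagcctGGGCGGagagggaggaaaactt
RAB4A: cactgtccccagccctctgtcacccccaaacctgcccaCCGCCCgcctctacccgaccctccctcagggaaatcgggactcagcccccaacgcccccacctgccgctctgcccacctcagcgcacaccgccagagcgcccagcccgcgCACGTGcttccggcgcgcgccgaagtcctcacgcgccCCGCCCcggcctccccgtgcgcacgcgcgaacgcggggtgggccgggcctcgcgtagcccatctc
They lie at chr1:153986340-153986589 on the minus strand (RAB13) and chr1:229270861-229271110 on the plus strand (RAB4A). The GC box was found in 37 of 44 members (84.1%), against 65.5% of genes. The E-box was found in 5 (11.4%), against 8.74%, which were RAB4A, RAB5A, RAB21, RAB24 and RAB31. A match is a description of the letters and says nothing about binding.

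When both libraries carried AIL, 2 RAB genes passed 2-fold between AR1-651 and empty vector, against 6 without AIL (3.70% and 11.1%). Among all genes the share was 5.0% with AIL and 15.6% without, so it was lower in the same way. RAB18, at 1.01, and RAB3C, at 1.26 from a listed 0, were the higher members, against 1.46% of all genes. RAB3C was kept only through the library in which it is counted as higher, so no share is read from this count. None was at least 2-fold lower, against 3.53% of all genes. The median change of the members was 0.15 and that of all genes -0.03. RAB4A was at 0.66, RAB13 at 0.30 and RAB32 at 0.28 in this comparison, RAB11B at -0.91, RAB43 at -0.86 and RAB42 at 0.63, so 5 of the 6 members past 2-fold without AIL had the same sign with it. The matching share over all genes past 2-fold without AIL was not taken, so 5 of 6 has no baseline here. Over all 54 members, with changes of any size, 35 had the same sign without and with AIL (64.8%, against 63.1% of all genes).

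**Figure D3:**
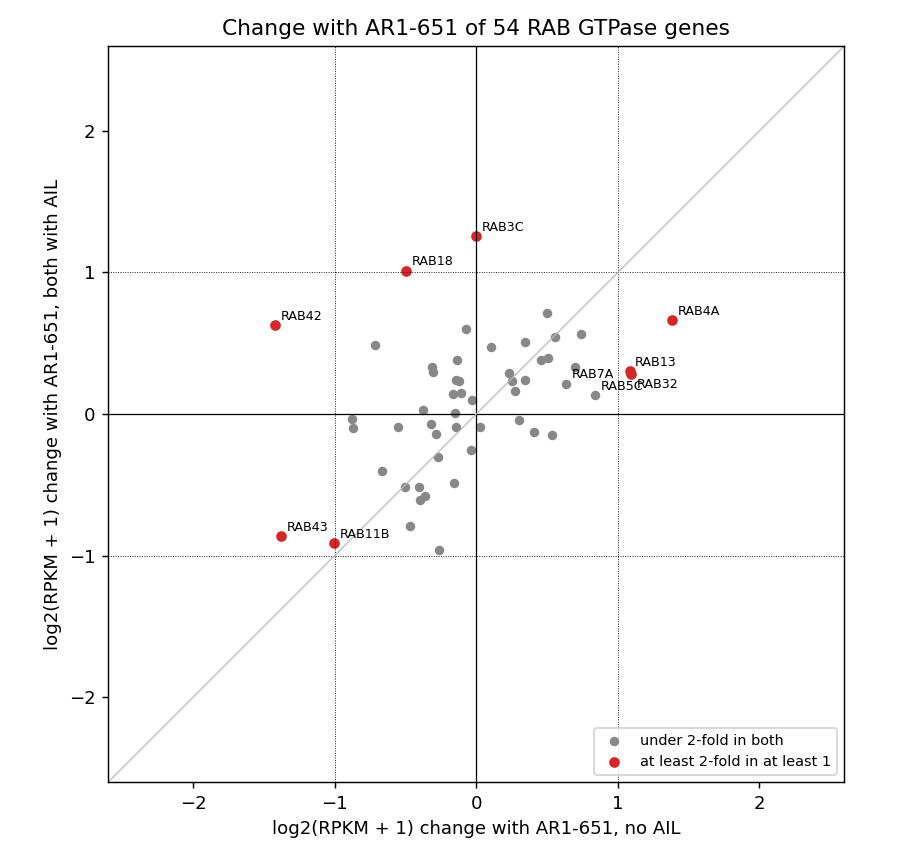
Change of log2(RPKM + 1) with AR1-651 against empty vector when neither library had AIL (x axis) and when both had it (y axis), 1 point per RAB gene, with dotted lines at 2-fold and a grey line of equality. RAB4A, RAB13 and RAB32 lie to the right and below the line of equality, and RAB43 and RAB11B at the lower left.

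Some close relatives moved apart, as measured by the ratio of RPKM within a pair, which does not depend on the scaling of the library. Others did not, such as RAB2A and RAB2B, whose ratio stayed between 1.40 and 2.05. The ratio of RAB11B to RAB11A was 2.61, 1.28, 1.09 and 0.540. RAB11A, the better known recycling RAB of the pair, held between 31.1 and 40.3 RPKM, so RAB11B varied more than RAB11A. Their epithelial relative RAB25 had 66.4, 40.2, 46.7 and 27.8 RPKM and was lowest, like RAB11B, with AR1-651 + AIL. Of the RAB5 genes, which together run early endosomes, RAB5C held the most RPKM in each library. RAB5A had 21.1, 23.9, 22.8 and 33.4 RPKM and RAB5B 34.3, 17.4, 28.3 and 13.9 RPKM. RAB5A was thus 0.615 times RAB5B with empty vector and 2.40 times with AR1-651 + AIL, and in both AIL libraries it was the higher of the pair.

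RAB4A was 1.35 times RAB4B with empty vector and 2.31 times with empty vector + AIL. The ratio was 4.01 with AR1-651 and 3.97 with AR1-651 + AIL. RAB4B had 17.3, 10.7, 15.6 and 9.99 RPKM and overlaps the readthrough transcript RAB4B-EGLN2 (listed at 0, then 3.50, 1.74 and 6.19 RPKM), so part of its reads may be shared. RAB13 and RAB10 were near equal with empty vector (1.08 times) and with empty vector + AIL (1.06 times), and RAB13 was 2.80 times RAB10 with AR1-651 and 1.44 times with AR1-651 + AIL. RAB10 had 108, 136, 89.0 and 123 RPKM and was higher with AIL in both kinds of cells, by 0.32 and 0.47. With the length and GC trend subtracted these changes were 0.28 and -0.14, so the direction in AR1-651 cells depends on the setting. RAB8A, which directs vesicles to the cilium and the basolateral membrane, had 30.8, 59.3, 38.2 and 57.7 RPKM, so its 2 AIL libraries were above the others, with changes of 0.92 and 0.58.

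**Figure D4:**
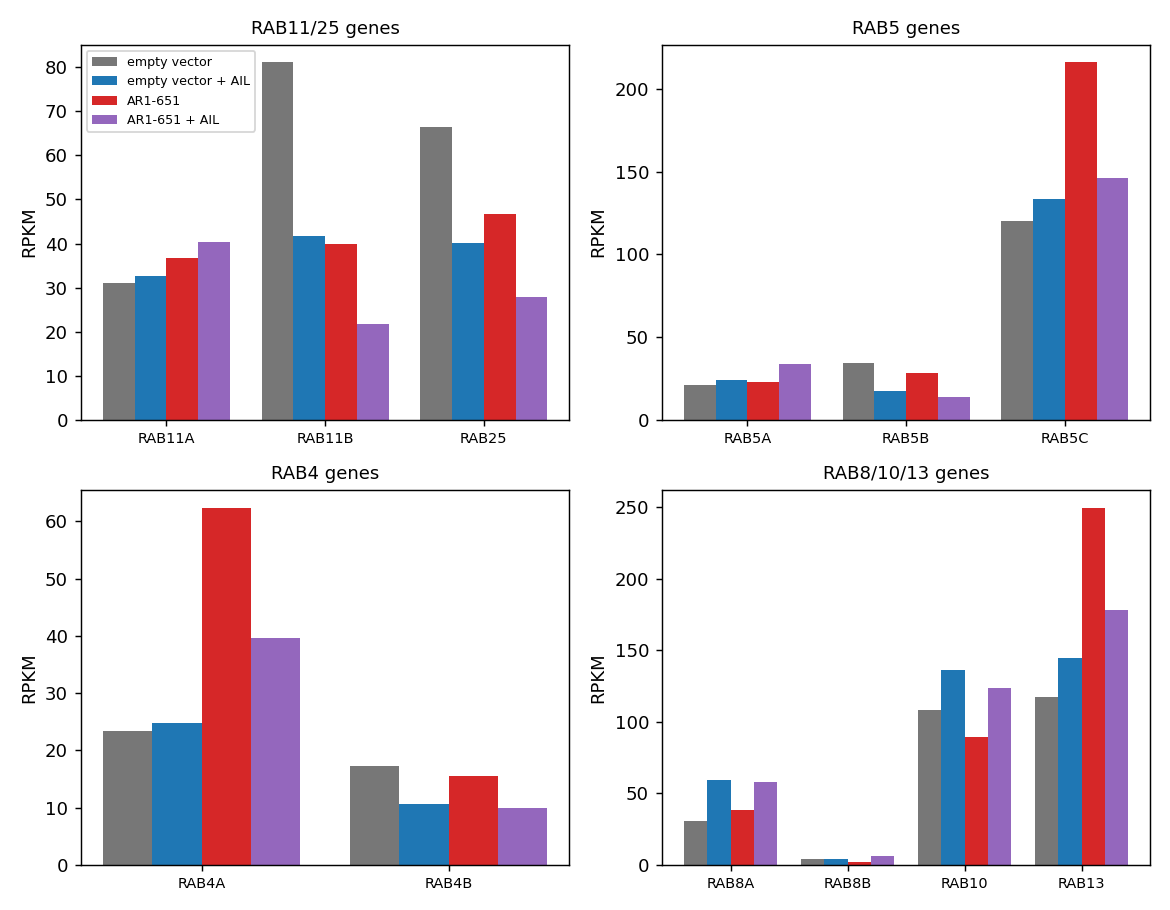
RPKM of the RAB11/25, RAB5, RAB4 and RAB8/10/13 genes, 1 bar per library, with a linear axis from 0 in each panel. RAB11B is the tallest of its set with empty vector and the shortest with AR1-651 + AIL, and RAB4A, RAB5C and RAB13 are tallest with AR1-651.

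Of the RAB27 genes, which dock secretory vesicles, RAB27A had 12.7, 6.92, 19.2 and 10.5 RPKM and RAB27B 4.44, 4.07, 1.96 and 3.95 RPKM. RAB27A was lower with AIL in both kinds of cells (-0.79 and -0.81), while RAB27B was at -0.10 and 0.74. Their ratio was highest with AR1-651, at 9.79, against 2.86 with empty vector. In the RAB3 family of regulated exocytosis, RAB3A had 21.5, 19.5, 15.2 and 10.85 RPKM and RAB3B 2.87, 1.66, 4.50 and 2.50 RPKM. RAB3A was 1.21 times RAB3D with empty vector and 2.33 times with empty vector + AIL, and 1.11 and 2.04 times in AR1-651 cells. RAB3D therefore lost share to RAB3A with AIL in both kinds of cells.

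Transcript composition moved with these differences. The 8 members at least 2-fold higher with AIL in AR1-651 cells had transcripts of 36.2% to 42.9% GC. RAB3C is among them but sets neither end of this range. The 3 lower members had 52.7% to 53.7% GC, where the median of the 54 was 46.8%. Across the members the change with AIL fell with GC content in AR1-651 cells (Spearman rho = -0.50) and in empty vector cells (rho = -0.30). Across all genes rho was -0.41 and -0.06. Between the AIL libraries the change with AR1-651 had rho = -0.58 over the members and -0.61 over all genes. When a trend in length and GC content, estimated over all genes, was subtracted, 2 of the 8 higher members in AR1-651 cells, RAB30 and RAB33B, remained past 2-fold. All 3 lower members in AR1-651 cells remained, and RAB27A, RAB29, RAB3B, RAB4A, RAB5B and RAB9B came past 2-fold lower. This made 9 lower members, against 7.52% of all genes. In empty vector cells 4 of the 5 higher members remained, all but RAB9A, which then had a change of 0.94. Of the 3 lower members there 1, RAB42, remained, while RAB12 and RAB26 came past 2-fold. For AR1-651 against empty vector, 1 of 3 higher members (RAB4A) and 1 of 3 lower members (RAB42) remained, and RAB3B came past 2-fold higher, at 1.17. RAB32 and RAB20, at 53.8% and 57.7% GC, were also higher with AIL in empty vector cells. The same subtraction left RAB18 at 0.29 in AR1-651 cells. RAB11A, with 38.5% GC, and RAB11B, with 63.5% GC, differ widely in this measure. With the trend subtracted, RAB11A and RAB11B changed with AIL by 0.03 and -0.97 in empty vector cells. In AR1-651 cells they changed by -0.63 and -0.71, so their changes were close there. For AR1-651 against empty vector the values were 0.56 and -0.75. The part of GC content in their ratio was not tested.

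**Figure D5:**
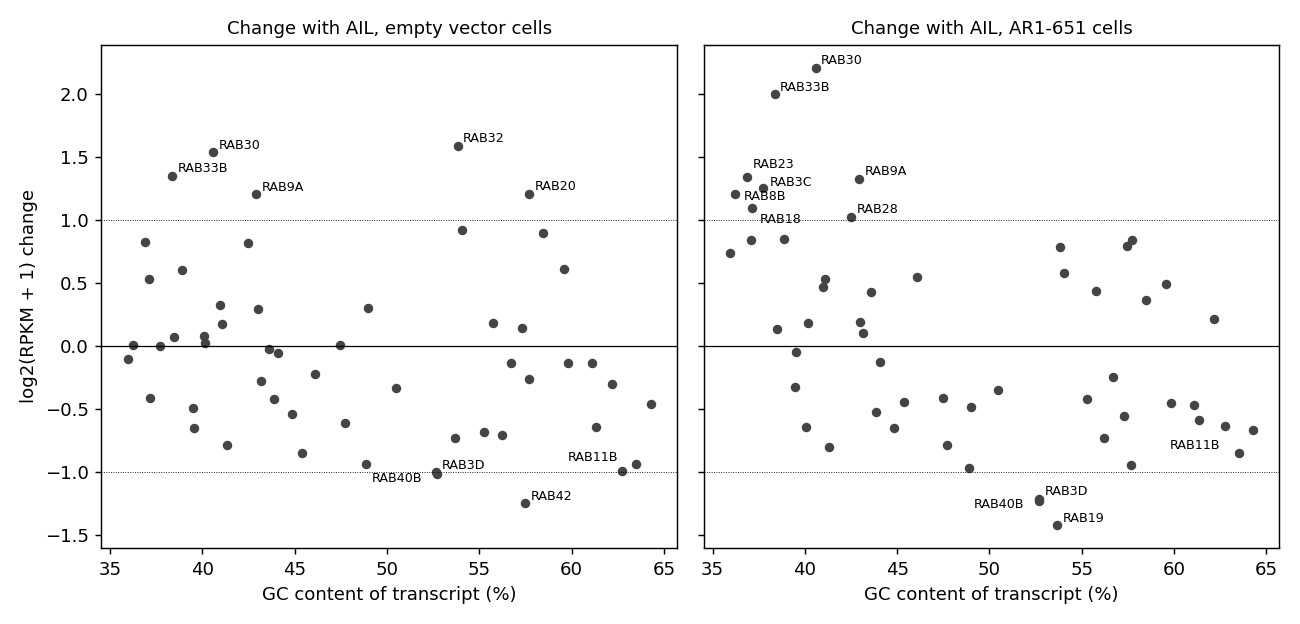
Change of log2(RPKM + 1) with AIL against the GC content of the transcript (%), for empty vector cells on the left and AR1-651 cells on the right, 1 point per RAB gene, with dotted lines at 2-fold. In AR1-651 cells the 8 members past 2-fold higher all lie at or below 42.9% GC, while in empty vector cells RAB32 and RAB20 lie at 53.8% and 57.7%.

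The genes that run the RAB cycle were described from lists set by function. Of 7 genes for prenylation and membrane recycling, none passed 2-fold with AIL in empty vector cells (all genes: 9.53% higher, 9.03% lower). In AR1-651 cells 1 was higher (14.3%, against 14.9%), and 0 with the length and GC trend subtracted (8.30% of all genes). The higher gene was RABGGTB, the catalytic subunit of RAB prenylation, with 49.0, 66.3, 35.3 and 99.4 RPKM. Of 48 exchange factor genes kept, none was higher and 2 were lower with AIL in empty vector cells (4.17%, against 9.53% of all genes higher and 9.03% lower). In AR1-651 cells 4 were higher (8.33%, against 14.9%) and 2 lower (4.17%, against 5.74%). With the trend subtracted 1 was higher there (8.30% of all genes) and 3 were lower (7.52%). TRAPPC1, a subunit of the TRAPP complex that activates RAB1, was lower in both, with 117, 39.5, 92.8 and 27.3 RPKM. Of 36 GTPase-activating protein genes, 2 were higher (5.56%, against 9.53%) and 3 lower (8.33%, against 9.03%) in empty vector cells. In AR1-651 cells 4 were higher (11.1%, against 14.9%) and 2 lower (5.56%, against 5.74%). With the trend subtracted 2 were higher (8.30% of all genes) and 2 lower (7.52%) in AR1-651 cells. TBC1D14, which binds RAB11, was lower in both (30.8, 9.76, 23.7 and 8.37 RPKM), and so was TBC1D16 (17.4, 4.79, 10.5 and 2.69 RPKM), which acts on RAB4A. RAB3GAP2, part of the exchange factor for RAB18, had 8.24, 13.7, 4.68 and 22.5 RPKM, with the highest value in the library where RAB18 was highest.

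Of 50 RAB effector genes kept, none was higher with AIL in empty vector cells, against 9.53% of all genes, and 3 were lower (6.0%, against 9.03%). In AR1-651 cells 8 were higher (16%, against 14.9%) and 4 lower (8.0%, against 5.74%). With the length and GC trend subtracted 3 were higher there (8.30% of all genes) and 2 lower (7.52%). RAB11FIP3, an effector of RAB11A and RAB11B, had 24.7, 6.30, 10.8 and 3.49 RPKM, the same order of libraries as RAB11B except that empty vector + AIL was below AR1-651. With AR1-651 alone, 8 effectors (16%) and 6 exchange factors (12.5%) were at least 2-fold lower, against 11.6% of all genes. In the same comparison 0 effectors and 1 exchange factor (2.08%) were higher, against 4.01%. With the trend subtracted 1 of each list was lower (3.73% of all genes), and 1 effector and 2 exchange factors were higher (4.69%). The medians of the effectors (-0.54), the exchange factors (-0.41) and the GTPase-activating proteins (-0.68) stood beside -0.13 for the RAB genes and -0.30 for all genes in this comparison, as deposited and without a test. Over all genes this change fell with transcript length (Spearman rho = -0.42), and over the RAB genes rho was -0.19. Medians of these lists with the trend subtracted were not taken, and the part of length was not tested.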

How the data were processed

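Total RNA from 4 LNCaP cultures, 1 per condition, was sequenced on the Illumina HiSeq2000 after a stranded kit. The authors deposited RPKM per Entrez gene, rounded to 2 decimals. The submitters' processing notes name BWA 0.7.10-r789 and hg19, while the counting tool and annotation are not given in the sources used here. RPKM corrects for depth and length but not for composition: where a few genes take many reads, the others read lower.

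Conditions came from the sample titles. Symbols came from a RefSeq table by Entrez identifier (19703 genes matched). Length and GC content were read from GENCODE transcripts paired with the RefSeq identifiers, which covered all 54 members. Their build, GRCh38, is not that of the files, and no position entered a calculation. Genes with 1 RPKM in at least 1 library were kept, log2(RPKM + 1) was computed, and 2-fold was the threshold. With 1 library per condition no test was made. The members and lists were chosen with earlier results of these data known. Named members were the 3 with the highest mean, all past 2-fold, RAB13 and all of the RAB1, RAB3, RAB5, RAB8/10/13, RAB11/25 and RAB27 sets. Other listed genes needed 2-fold and 5 RPKM, with at most 5 per list and comparison, from which examples were taken. Alternatives were median-ratio scaling, a pseudocount of 0.1, a minimum of 5 RPKM, no filter, rescaling without ribosomal protein genes, subtraction of medians within 10 length bins, a 1.5-fold threshold and, added after seeing the data, removal of a degree 3 trend in the ranks of length and GC content. The calculations were tested on simulated data. Some items are not reported here. Python 3.11.15, NumPy 2.4.6, pandas 2.3.3, SciPy 1.17.1 and matplotlib 3.10.9 were used.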

Additional observations from a re-analysis of the deposited data

Results flagged for a closer look

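With AIL, 11 of the 54 members (20.4%, against 27.8% of all genes) moved in opposite directions in empty vector and AR1-651 cells, and none of these differences was tested, with 1 library per condition. The change in AR1-651 cells minus that in empty vector cells was 2.05 for RAB42, 1.51 for RAB18, 0.84 for RAB27B, 0.77 for RAB6A, 0.52 for RAB43, 0.46 for RAB39B and 0.38 for RAB6C, which were lower with AIL in empty vector cells only. It was -0.78 for RAB13, -0.72 for RAB4A, -0.70 for RAB5C and -0.42 for RAB7A, which were lower with AIL in AR1-651 cells only. In 3 of the 11 genes, RAB42, RAB18 and RAB13, the change was at least 0.3 in each kind of cell.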

How the results depend on the processing

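No paired analysis was possible because each condition has 1 library and the labels carry no replicate numbers. No filter and a minimum of 5 RPKM leave a gene's own change as it was, and a pseudocount of 0.1 can only enlarge it. No member past 2-fold turned its direction under any other alternative. Of 27 such changes 24 stayed past 2-fold with median-ratio scaling and 24 when rescaled without ribosomal protein genes. With length bins 17 stayed, and 12 with the length and GC trend removed. The cause of the other moves was not tested. The counts that follow are of 54 members unless stated, and brackets give the percentage of all genes in the same setting. For AR1-651 against empty vector, rescaling without ribosomal protein genes gave 1 higher (2.80%) and 5 lower (17.0%) and a median of -0.26. Length bins gave 1 lower (3.76%) and a median of 0.26, and trend removal 1 lower (3.73%) and a median of 0.14. Median-ratio scaling gave a median of 0.11, and the 1.5-fold threshold 7 higher (10.7%) and 7 lower (32.3%). For AIL in empty vector cells, 1.5-fold gave 11 higher (20.9%) and 14 lower (22.1%). In the same cells rescaling without ribosomal protein genes gave 6 lower (11.01%), and no filter a median of -0.013. For AIL in AR1-651 cells, 1.5-fold gave 14 higher (28.6%) and 14 lower (14.7%). In this comparison length bins gave 4 higher (11.2%), 6 lower (7.77%) and a median of -0.15. Trend removal gave 2 higher (8.30%), 9 lower (7.52%) and a median of -0.36, and median-ratio scaling 7 lower (8.62%) and a median of -0.17. Between the AIL libraries, 1.5-fold gave 6 higher (7.73%) and 5 lower (15.5%). A minimum of 5 RPKM gave 1 of 48 higher (1.04%), and rescaling without ribosomal protein genes 1 higher (1.38%). Trend removal gave 0 higher (1.18%), and a pseudocount of 0.1 gave 2 lower (7.93%). The median difference of the AIL changes, 0.06, became -0.15 with median-ratio scaling, -0.015 with no filter, 0.20 without ribosomal protein genes, -0.15 with length bins and -0.21 with trend removal. The share of members moving the same way with AIL in both kinds of cells ran from 72.6% (45 of 62, no filter) to 83.3% (45 of 54, length bins), against 60.5% to 75.9% of all genes, and was below that of all genes with trend removal only (40 of 54, 74.1% against 75.9%). The deposited values carry no read counts, so the precision of low members such as RAB3C, RAB31 and RAB36 is unknown.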

Other observations

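RAB30-DT, the lncRNA listed beside RAB30, had 20.03, 28.8, 37.4 and 44.05 RPKM, while RAB30 had 2.04, 7.84, 1.89 and 12.4 RPKM, so the AR1-651 library was above empty vector for the lncRNA only.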
